A study of Mus musculus with 6 samples.

Results

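The mitosis and G2/M genes followed here are 48 genes named for their parts in entry into mitosis, spindle assembly, chromosome segregation and cytokinesis. They were taken from the array by gene symbol, from a list drawn up with earlier results of these data known. On the Illumina mouse bead array, which reports 1 signal per probe, 45 of them had at least 1 probe under that symbol, 95 probes in all. Detection meant a detection p under 0.01, and probes that reached it on 3 or more of the 6 arrays were tested. This left 36 members with 61 tested probes, among 8200 tested genes with a name and 14651 tested probes. The arrays held total RNA of thymic lymphocytes, released mechanically, from mice of the mixed strain C57/bl6-129sv aged 8 to 12 weeks. In 3 knockout mice (KO, replicates 1 to 3) a floxed Kap1 allele was deleted by CD4-Cre. The 3 controls (replicates 4 to 6) were littermates, labelled wt/Kap1flox, so that both groups carried the floxed allele. CD4-Cre acts in the T lineage from around the CD4 and CD8 double-positive stage, so cells of other lineages and most earlier thymocytes keep the gene, and no sort of the cells is named.

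Cells prepare for division in G2 and divide in mitosis. Cyclin B with the kinase CDK1 starts the process, the Aurora and Polo-like kinases build the spindle, and the spindle checkpoint holds the anaphase-promoting complex (APC/C) back until every chromosome is attached. Transcripts of these genes accumulate late in the cycle through the MuvB complex, MYBL2 and FOXM1, and in the thymus the dividing cells are mostly immature thymocytes in the steps up to the early double-positive stage, so that these transcripts mark the dividing fraction. Because each array measured a mixed preparation, fewer dividing cells and less of a transcript per dividing cell cannot be told apart.

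The targeted gene, Trim28, which encodes KAP1, had log2 signals of 10.83, 11.01 and 10.23 on knockout replicates 1 to 3 and 12.39, 12.25 and 12.59 on control replicates 4 to 6. The groups did not overlap, with a log2 difference of -1.72 ± 0.26 (SE, n = 3 per group; limma adjusted p = 0.23). Between 13973 and 15182 probes were detected per array. The T lineage markers Thy1 and Cd3d were bright on all arrays, at log2 14.57 to 15.12 and 14.06 to 14.30. Of the marker lists for other cells, the summed signal of 6 tested dendritic cell and MHC class II genes ran from 6850 to 12494 in the knockout and from 3820 to 5176 in the controls. That of 7 tested neutrophil genes ran from 852 to 3077 and from 1625 to 4325. Of the first list 5 genes were higher, with a median log2 difference of 0.84, and all 7 neutrophil genes were lower, with a median of -0.51. All 5 tested macrophage genes, all 5 tested NK and innate-like T cell genes and 2 of 3 tested B cell genes were higher as measured, with median log2 differences of 0.54, 0.47 and 0.62. Their summed signals ran from 759 to 1666 against 557 to 1065, from 517 to 1577 against 451 to 693, and from 782 to 1337 against 569 to 815. The single tested erythroid and thymic epithelial genes differed by -0.14 and 0.05. No array detected the dendritic cell genes Flt3, Itgax, Xcr1, Zbtb46 and Ccl22, the neutrophil receptor genes Cxcr2 and Csf3r, the macrophage genes Adgre1, Mertk and Cd14, the B cell genes Ms4a1, Pax5 and Cd22, or the NK and innate-like genes Klrb1c, Klrk1, Ncr1, Tbx21 and Zbtb16. Of 7 tested double-negative stage markers 2 were lower, of 7 double-positive stage markers 4, and of 7 mature single-positive markers 1, with median log2 differences of 0.22, -0.06 and 0.67. The part of these cells in the values below was not tested.

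Mitosis and G2/M genes were lower in the knockout as measured, by modest amounts, and no single member passed the test. Of the 36 tested members 33 were lower and 3 were higher, where 52.1% of all tested genes were lower. The median log2 difference was -0.38, a control level 1.3-fold that of the knockout, against -0.01 over all tested genes. Each member stands here for its brightest tested probe. On these probes the differences ran from -0.87 for Melk to 0.05 for Cdc25b, with standard errors between 0.19 and 0.70. On them 0 members differed by 2-fold or more, while a dimmer Top2a probe differed by -1.07 and a dimmer Ncapd2 probe by -0.92. In limma 0 of 36 members passed the adjusted threshold of 0.05, where 0.0273% of all tested probes did, and their adjusted p-values were all 0.998. At an unadjusted p under 0.05 there were 5 members, and each was lower (Foxm1, Ncapd2, Espl1, Melk and Top2a), where 1.28% of all tested genes were lower at that level and 2.22% higher. All 3 knockout arrays lay below all 3 control arrays for 7 members (Foxm1, Ncapd2, Ncaph, Espl1, Cdca8, Incenp and Cenpa), where 3.39% of all tested genes did so. The opposite order was seen for 0 members, where 4.61% of genes showed it.

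**Figure D1:**
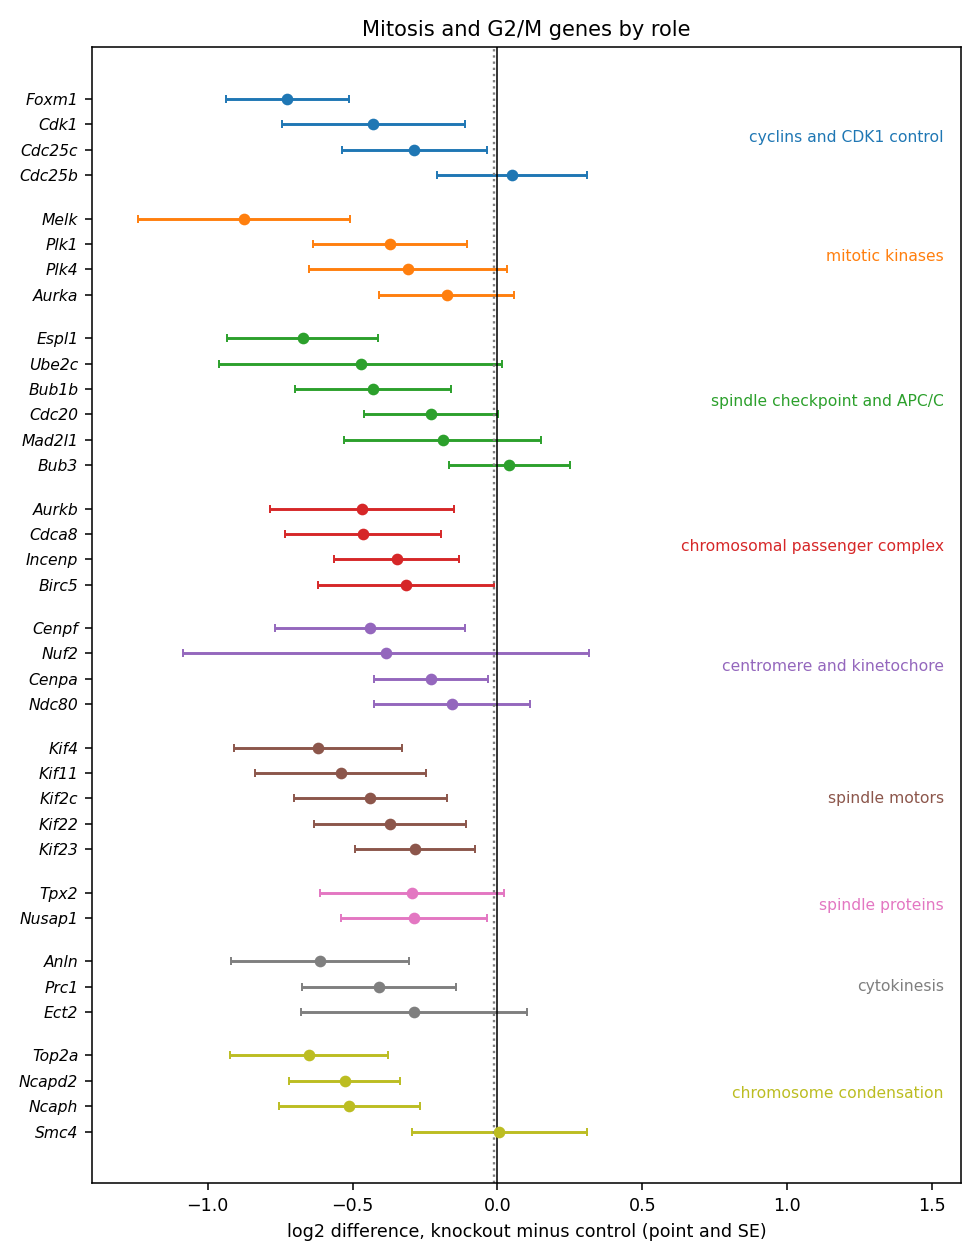
Log2 difference between knockout and control (x axis) for each of the 36 tested members (y axis), grouped and coloured by role; points are estimates from limma, bars are 1 SE with 3 arrays per group, and the dotted line is the median of all tested genes. The points lie left of 0 for 33 members, and Cdc25b, Bub3 and Smc4 lie at or just right of it.

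In the comparison without pairs, knockout replicate 3 carried much of this. It was the lowest of the 6 arrays for 25 of the 36 members, and control replicate 5 was the highest for 21, where 19.7% and 8.13% of all tested genes had their lowest and highest value on these arrays. Relative to each gene's mean over the arrays, the median member stood at 0.10, -0.15 and -0.54 on knockout replicates 1 to 3 and at 0.27, 0.38 and -0.08 on control replicates 4 to 6. Knockout replicate 1 thus stood above control replicate 6, and the groups overlapped at the median. Without knockout replicate 3 the median log2 difference was -0.19, 29 of 36 members were lower, where 49.5% of all genes were, and 1 member, Foxm1, was lower at an unadjusted p under 0.05, where 1.12% of all genes were. The 7 members then higher were Cdc25b, Bub3, Smc4, Ndc80, Nuf2, Mad2l1 and Ect2. Foxm1 was also the single member at that level when control replicate 4 or control replicate 5 was left out, where 0.744% and 0.756% of all genes were. Without knockout replicate 1 there were 11 members at it, where 2.67% of all genes were. Groups that did not overlap numbered 18 without knockout replicate 1, 11 without knockout replicate 2 and 21 without control replicate 6, where 11.2%, 9.45% and 6.95% of genes did so. They numbered 7 without knockout replicate 3, 9 without control replicate 4 and 7 without control replicate 5, where 7.84%, 6.62% and 7.01% of genes did so. The file gives the arrays numbers of unstated meaning, in which each knockout array has a control neighbour. Within these pairs, in the order of the knockout replicates, 25, 32 and 32 members were lower, with medians of -0.14, -0.53 and -0.48. The neighbour of knockout replicate 3 was control replicate 6, the lowest control at the median, and their pair was not the furthest below 0. Values without knockout replicate 3 alone keep this control in, so they are not values without the pair. With the pairs as a block 8 members were at an unadjusted p under 0.05, where 2.13% of all genes were, and 0 passed the adjusted threshold.

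**Figure D2:**
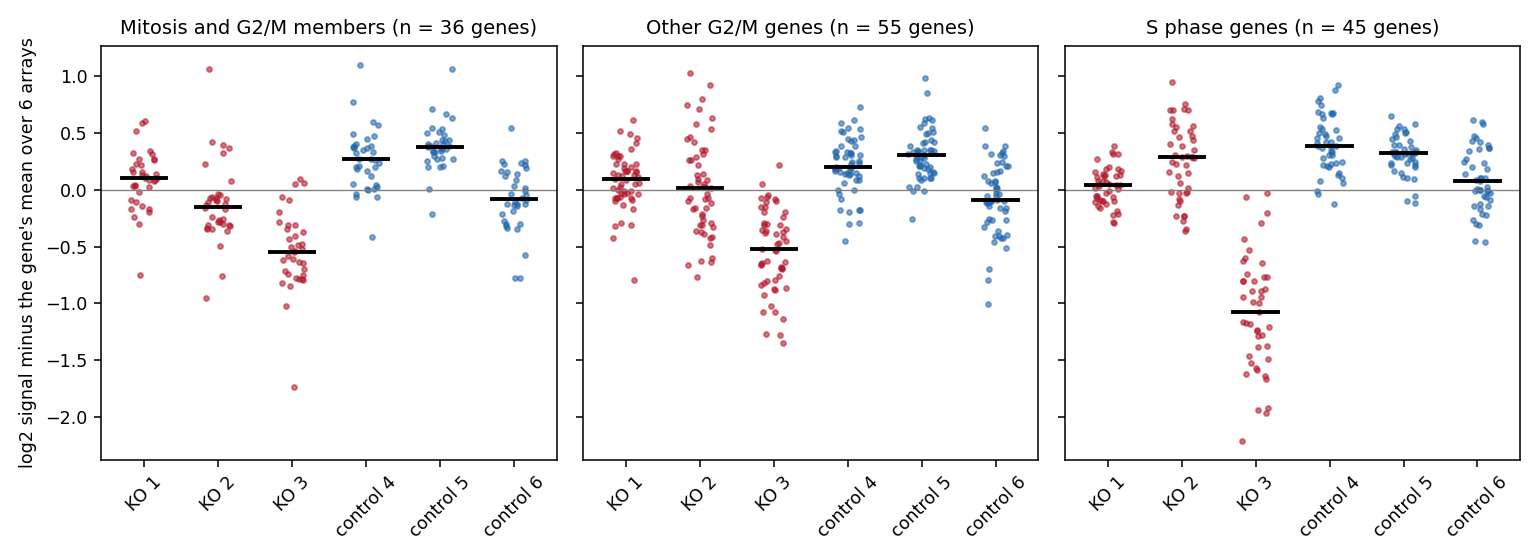
Log2 signal minus the gene's own mean over the 6 arrays (y axis) on each array (x axis) for the members, other G2/M genes and S phase genes; 1 point is 1 tested gene and black bars are medians, knockout in red and control in blue. Knockout replicate 3 has the lowest median in every panel. Knockout replicate 2 is at -0.15 for the members, at 0.02 for the other G2/M genes and at 0.29 for the S phase genes.

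The DNA around the transcription starts of these genes shares letters that the choice of members did not use. Windows of 250 bases before to 50 bases after the transcription start, from RefSeq on GRCm38.p6, were matched by symbol for 40 of the 48 members, in 43 windows. The cell cycle genes homology region (CHR), the element bound by MuvB, was searched as TTTGAA, and NF-Y's CCAAT box as CCAAT, both on both strands. TTTGAA stood in 31 of the 43 windows (72.1%) and in 17.9% of 32841 windows of all genes. The rarer variant TTCGAA stood in 4 of the 43 (9.3%) and in 1.6% of all. CCAAT stood in 32 (74.4%) and in 37.4% of all. A CHR of either kind together with CCAAT stood in 30 (69.8%) and in 7.5% of all. TTCGAA reads the same on both strands, and no matches overlap in the windows printed here. Among tested members with a window, the 23 with a CHR of either kind had a median log2 difference of -0.43 and the 7 without -0.32, which is a description only. Of the 5 members with an unadjusted p under 0.05, the windows of Ncapd2, Espl1 and Top2a are given. With them is one of Bub3, which was not lower. Foxm1 and Melk, the others at that level, had no window or none with a match, so the printed windows do not stand for all 5. Capitals mark every match to the 3 motifs, in either direction.
Ncapd2, chr6:125191537-125191836, minus strand: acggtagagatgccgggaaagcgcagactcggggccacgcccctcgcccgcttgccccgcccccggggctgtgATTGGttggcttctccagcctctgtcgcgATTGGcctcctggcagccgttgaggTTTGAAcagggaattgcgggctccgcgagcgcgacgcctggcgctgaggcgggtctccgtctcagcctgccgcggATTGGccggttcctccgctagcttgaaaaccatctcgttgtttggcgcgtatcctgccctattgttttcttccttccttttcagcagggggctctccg
Espl1, chr15:102296043-102296342, plus strand: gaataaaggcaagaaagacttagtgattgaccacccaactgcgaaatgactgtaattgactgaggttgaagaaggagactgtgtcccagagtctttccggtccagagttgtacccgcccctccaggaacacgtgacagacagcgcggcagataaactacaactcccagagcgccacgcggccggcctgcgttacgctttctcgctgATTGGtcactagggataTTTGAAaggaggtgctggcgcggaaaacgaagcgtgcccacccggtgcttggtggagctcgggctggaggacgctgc
Top2a, chr11:99024140-99024439, minus strand: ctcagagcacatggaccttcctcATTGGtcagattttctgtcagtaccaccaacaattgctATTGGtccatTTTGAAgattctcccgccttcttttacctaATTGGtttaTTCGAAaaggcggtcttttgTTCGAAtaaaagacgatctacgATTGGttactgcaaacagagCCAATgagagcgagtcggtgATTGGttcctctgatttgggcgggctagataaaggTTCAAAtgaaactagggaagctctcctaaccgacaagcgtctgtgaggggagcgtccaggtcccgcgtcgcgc
Bub3, chr7:131560120-131560419, plus strand: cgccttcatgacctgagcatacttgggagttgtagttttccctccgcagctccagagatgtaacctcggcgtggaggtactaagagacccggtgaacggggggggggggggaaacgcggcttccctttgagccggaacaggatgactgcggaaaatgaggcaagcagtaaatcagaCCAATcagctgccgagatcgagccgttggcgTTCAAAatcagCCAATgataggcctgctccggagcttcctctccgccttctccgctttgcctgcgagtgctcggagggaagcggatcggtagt
Espl1 held 1 CHR and 1 CCAAT, Ncapd2 1 and 3, and Top2a 4 and 6. Bub3 also held 1 CHR and 2 CCAAT, so that these letters did not part it from the lower members printed here.

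Among regulators of mitotic entry, Foxm1, the transcription factor that switches on G2/M genes, had the smallest unadjusted p of all members on their brightest probes. A dimmer Ncapd2 probe had a smaller one. Its log2 signals were 8.41, 8.54 and 8.10 on knockout replicates 1 to 3 and 9.12, 9.15 and 8.96 on control replicates 4 to 6. Every knockout array lay below every control array, and the log2 difference was -0.72 ± 0.21 (SE; limma unadjusted p = 0.00817, adjusted p = 0.998). The other tested Foxm1 probe differed by -0.62 ± 0.23, and without any 1 array the difference ran from -0.82 to -0.60. Cdk1, the kinase that drives mitotic entry, stood at 10.53, 10.996 and 9.85 in the knockout and at 11.06, 11.06 and 10.54 in the controls. Here the groups overlapped, and the difference of -0.43 ± 0.32 was -0.12 without knockout replicate 3. Cdc25b and Cdc25c encode phosphatases that activate CDK1. Cdc25b was at 7.40, 6.71 and 7.16 in the knockout and 7.31, 7.07 and 6.75 in the controls, with no order between the groups (0.05 ± 0.26; -0.11 without knockout replicate 1 and -0.10 without control replicate 6). Cdc25c differed by -0.29 ± 0.25 (-0.09 without control replicate 5). The cyclin genes gave little: Ccnb2 was detected on 0 arrays, Ccna2 on 1, and Ccnb1 had no probe under its symbol.

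Of the mitotic kinases 4 of 5 were tested and all 4 were lower. Melk, a kinase gene of dividing cells, had the largest difference of any member on its brightest probe, which was near the detection limit. Its log2 signals were 4.96, 5.64 and 5.23 in the knockout and 6.31, 6.78 and 5.37 in the controls, detected on 1 knockout and 2 control arrays. The highest knockout array exceeded the lowest control, and the difference was -0.87 ± 0.37 (limma unadjusted p = 0.042, adjusted p = 0.998), -0.56 without control replicate 5 and -0.31 without background correction. Its other tested probes differed by -0.27 and -0.59, and the last was detected on 0 knockout and 3 control arrays. Plk1, the Polo-like kinase of centrosome maturation and mitotic exit, was at 10.58, 10.31 and 9.85 in the knockout and 10.55, 10.93 and 10.36 in the controls. Knockout replicate 1 exceeded 2 of the controls, and the difference of -0.37 ± 0.26 was -0.17 without knockout replicate 3. Aurka, the Aurora kinase of spindle poles, was at 9.9975, 10.03 and 9.59 in the knockout and 9.99, 10.32 and 9.84 in the controls. The groups overlapped (-0.17 ± 0.23; -0.03 without knockout replicate 3). Plk4, the kinase of centriole duplication, differed by -0.31 ± 0.34 (-0.06 without knockout replicate 3), and Ttk, a checkpoint kinase, was detected on at most 2 arrays and not tested.

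Spindle checkpoint and APC/C genes were lower for 5 of 6 tested, the exception being Bub3. Espl1, which encodes separase, the protease that cuts cohesin at anaphase, was at 8.65, 8.26 and 7.78 in the knockout and 9.06, 8.84 and 8.80 in the controls. The groups did not overlap, although knockout replicate 1 came close to the controls (-0.67 ± 0.26; limma unadjusted p = 0.0305, adjusted p = 0.998; -0.45 without knockout replicate 3). Bub1b, the checkpoint protein BUBR1, was at 11.73, 11.17 and 10.99 in the knockout and 11.85, 11.95 and 11.38 in the controls. Knockout replicate 1 stood among the controls, and the difference was -0.43 ± 0.27, with -0.50 on the other tested probe and -0.28 without knockout replicate 3. Bub3, the checkpoint partner of BUB1 and BUBR1, was at 8.40, 8.20 and 8.35 in the knockout and 8.23, 8.08 and 8.51 in the controls. It showed no order between the groups (0.04 ± 0.21, 95% interval -0.44 to 0.52; -0.05 without control replicate 5). Cdc20, the APC/C activator, differed by -0.23 ± 0.23 on its brightest probe (-0.11 without control replicate 5) and by -0.31, -0.47 and -0.57 on its 3 others, of which the last had an unadjusted p of 0.0214 in limma. Mad2l1, a checkpoint inhibitor of CDC20, differed by -0.19 ± 0.34, and by 0.16 without knockout replicate 3. Ube2c, the ubiquitin-conjugating enzyme of the APC/C, was detected on 3 arrays and differed by -0.47 ± 0.49, and by -0.08 without knockout replicate 3. Bub1 was detected on 0 arrays.

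All 4 genes of the chromosomal passenger complex, which corrects faulty attachments and steers cytokinesis, were tested and lower. Aurkb, its kinase, was at 9.88, 10.20 and 9.12 in the knockout and 10.02, 10.60 and 9.98 in the controls. Knockout replicate 2 lay above 2 controls, and the difference was -0.47 ± 0.32, and leaving out knockout replicate 3 or control replicate 5 gave -0.16 or -0.27. Its scaffold gene Incenp was at 10.40, 10.04 and 9.88 in the knockout and 10.45, 10.48 and 10.44 in the controls. Cdca8, which encodes borealin, was at 11.34, 11.11 and 10.41 in the knockout and 11.39, 11.52 and 11.36 in the controls. For both genes the groups did not overlap, yet knockout replicate 1 lay just below the lowest control, replicate 6. It was at 10.405 against 10.441 for Incenp and at 11.344 against 11.357 for Cdca8. Their differences were -0.35 ± 0.22 and -0.46 ± 0.27, and -0.23 and -0.19 without knockout replicate 3. Birc5, which encodes survivin, was at 11.50, 12.07 and 10.97 in the knockout and 11.88, 12.06 and 11.54 in the controls. Knockout replicate 2 was its highest array, and the difference of -0.32 ± 0.30 was -0.05 without knockout replicate 3.

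Centromere and kinetochore genes, which attach chromosomes to microtubules, were lower for 4 of 4 tested, with a median log2 difference of -0.31. Cenpa, the histone H3 variant that marks centromeres, was at 13.04, 13.25 and 13.22 in the knockout and 13.29, 13.49 and 13.42 in the controls. The groups did not overlap but lay close (-0.23 ± 0.20), and the other tested Cenpa probe went the other way, by 0.20 ± 0.34. Cenpf, a kinetochore and nuclear matrix protein gene, was at 6.34, 5.16 and 6.17 in the knockout and 6.38, 6.55 and 6.06 in the controls. A single low array, knockout replicate 2, set its difference (-0.44 ± 0.33; -0.08 without it). Ndc80, the microtubule-binding subunit gene of the complex of that name, was at 9.19, 8.83 and 8.38 in the knockout and 8.82, 9.26 and 8.79 in the controls. The ranges overlapped, and the difference of -0.16 ± 0.27 was 0.05 without knockout replicate 3. Nuf2, of the same complex, differed by -0.38 ± 0.70, the widest error of all members. Its sign rested on single arrays, with 0.39 without knockout replicate 3 and 0.07 without control replicate 4. Cenpe was detected on 0 arrays.

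Spindle motors, kinesins that slide and depolymerise microtubules, were lower for 5 of 5 tested genes, with a median log2 difference of -0.44. Kif4, a chromosome-arm kinesin of anaphase, was at 9.81, 9.42 and 9.01 in the knockout and 10.29, 10.23 and 9.58 in the controls. Only knockout replicate 1 reached above a control, and 3 tested probes gave -0.62, -0.64 and -0.59 (SE 0.29 for the brightest; -0.42 without knockout replicate 3). Kif11, the kinesin that pushes spindle poles apart, was at 9.91, 9.31 and 8.89 in the knockout and 10.09, 10.04 and 9.60 in the controls. The order of its arrays was that of Kif4, with a difference of -0.54 ± 0.29, and -0.30 without knockout replicate 3. Kif23, a kinesin of the central spindle, was at 12.14, 11.85 and 11.92 in the knockout and 12.12, 12.45 and 12.20 in the controls. Knockout replicate 1 stood just above control replicate 4, and the difference was -0.28 ± 0.21 on the brightest probe, and its other tested probes gave 0.07 and -0.13. Kif2c, a microtubule depolymerase gene, and Kif22, a chromokinesin gene, differed by -0.44 ± 0.26 and -0.37 ± 0.26 (-0.19 for Kif22 without knockout replicate 3), and Kif20a was detected on 0 arrays.

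Spindle proteins and cytokinesis genes were lower for 5 of 5 tested. Nusap1, a microtubule bundler, was at 12.38, 12.13 and 11.67 in the knockout and 12.47, 12.48 and 12.10 in the controls. Tpx2, the activator of Aurora A on the spindle, was at 9.05, 8.88 and 8.67 in the knockout and 9.49, 9.55 and 8.44 in the controls. Both genes overlapped between the groups, and control replicate 6 was the lowest array for Tpx2. Their differences were -0.29 ± 0.25 and -0.29 ± 0.32 (-0.09 for Nusap1 without knockout replicate 3; for Tpx2, -0.10 without control replicate 5 and -0.65 without control replicate 6). Anln, which encodes the contractile ring scaffold anillin, was at 10.12, 9.03 and 9.32 in the knockout and 9.83, 10.14 and 10.34 in the controls. Prc1, which bundles the central spindle, was at 12.40, 11.86 and 11.52 in the knockout and 12.48, 12.40 and 12.12 in the controls. In both, knockout replicate 1 stood among the controls and the other knockout arrays below them (-0.61 ± 0.31 and -0.41 ± 0.27; -0.39 for Anln without knockout replicate 2 and -0.21 for Prc1 without knockout replicate 3). Ect2, the exchange factor that activates RhoA at the cleavage furrow, was at 6.82, 5.95 and 5.49 in the knockout and 5.81, 6.89 and 6.42 in the controls. The groups overlapped, with knockout replicate 1 near the top, and the difference of -0.29 ± 0.39 was 0.01 without knockout replicate 3. Hmmr and Racgap1 were detected on 0 arrays, and Tacc3 had no probe under its symbol.

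Genes that shape mitotic chromosomes were lower for 3 of 4 tested, the exception being Smc4. Ncapd2, a subunit gene of condensin I, was at 11.54, 11.43 and 11.45 in the knockout and 12.11, 11.94 and 11.96 in the controls. Its knockout arrays were close together and all below the controls (-0.53 ± 0.19; limma unadjusted p = 0.0238, adjusted p = 0.998). The difference was -0.56, -0.51 and -0.51 within the 3 pairs and ran from -0.56 to -0.48 without any 1 array, its unadjusted p missing 0.05 without knockout replicate 3 or any 1 control. The other tested probes gave -0.65 and -0.92, the last with a limma unadjusted p of 0.00568 (adjusted p = 0.998). Ncaph, which encodes the kleisin subunit of condensin I, was at 10.66, 10.58 and 10.04 in the knockout and 11.01, 11.09 and 10.71 in the controls. The groups did not overlap, by a narrow margin (-0.51 ± 0.24; -0.32 without knockout replicate 3). Smc4, an ATPase subunit gene of both condensins, was at 9.45, 8.56 and 8.54 in the knockout and 8.81, 9.14 and 8.57 in the controls. It differed by 0.01 ± 0.30 (95% interval -0.68 to 0.69), and its sign turned under median scaling (-0.01). Its other tested probes gave 0.26 and 0.07. Top2a, which encodes the topoisomerase that untangles sister chromatids, was at 11.95, 11.49 and 11.02 in the knockout and 12.18, 12.30 and 11.93 in the controls. Knockout replicate 1 just passed control replicate 6, and the difference was -0.65 ± 0.27 (limma unadjusted p = 0.0423, adjusted p = 0.998), with -1.07 ± 0.36 on the other tested probe and -0.42 without knockout replicate 3. Smc2, the partner of SMC4, was detected on at most 2 arrays, and Mki67, which encodes the chromosome surfactant Ki-67, had no probe under its symbol.

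**Figure D3:**
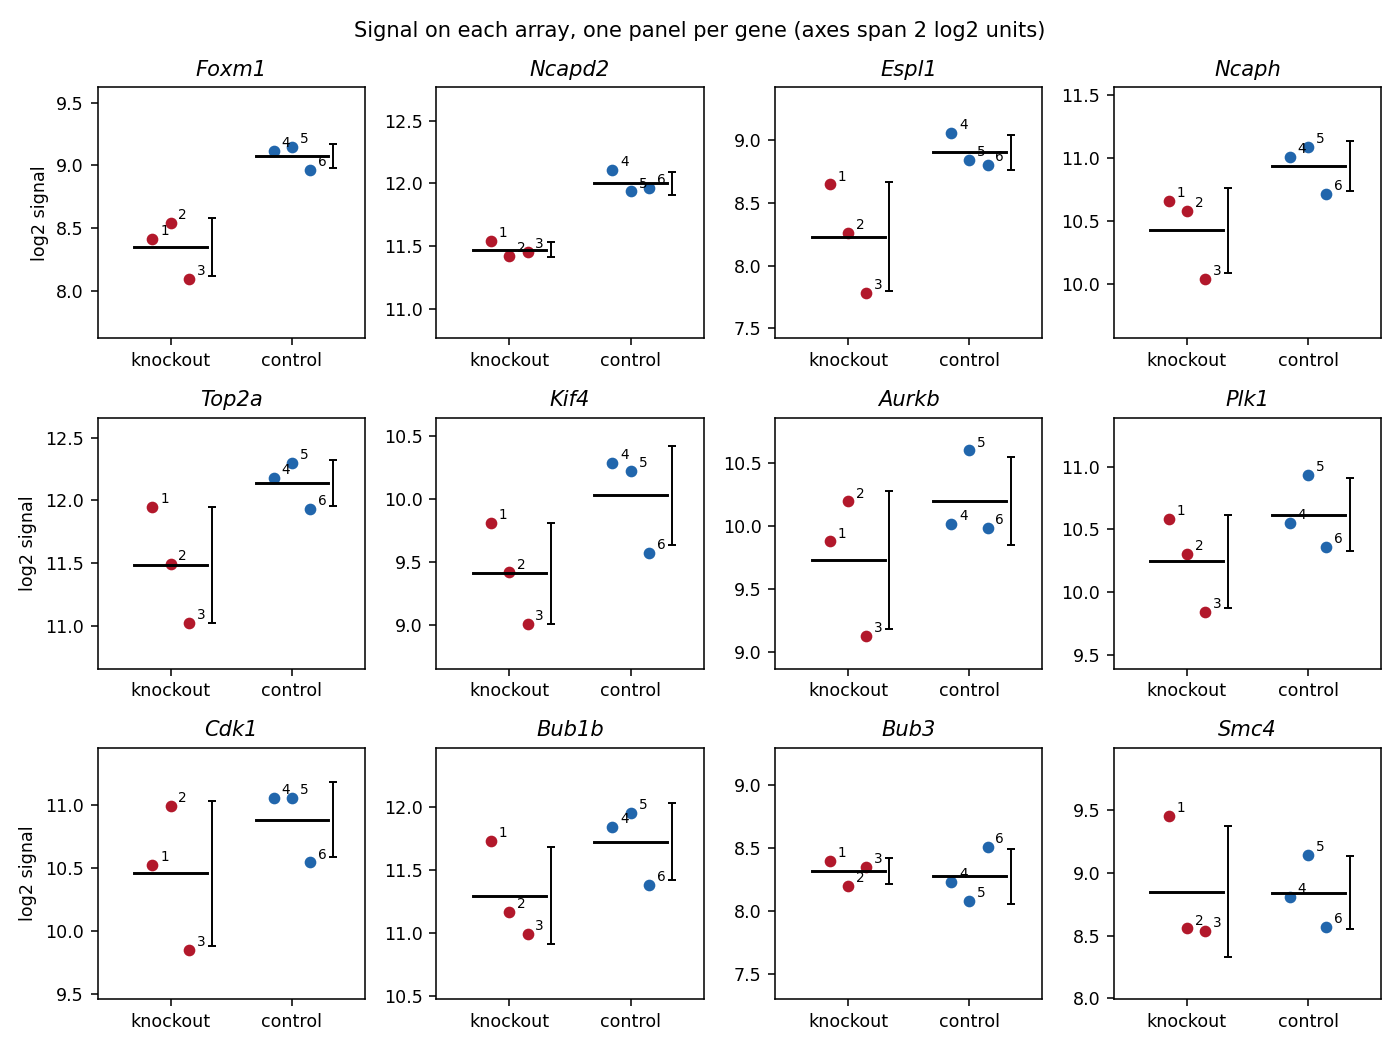
Log2 signal (y axis) on each array for 12 members, knockout in red and control in blue; digits are replicate numbers, horizontal lines are group means and bars beside them are 1 SD (n = 3). Each panel spans 2 log2 units around its own centre, and panels are not to be compared in level. The groups are apart for Foxm1, Ncapd2, Espl1 and Ncaph and overlap for the others, with knockout replicate 3 lowest for Top2a, Kif4, Aurkb, Plk1, Cdk1 and Bub1b.

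Most members had high and low values on the same arrays, with the difference between the groups included. Over the 6 arrays the correlation of a member with the median of the other members had a median of 0.81, and it was above 0.9 for 11 of the 36. It was 0.98 for Kif4 and Nusap1 and 0.97 for Kif22, Ncaph, Kif11 and Plk1. The lowest values were -0.46 for Bub3, 0.24 for Cdc25b and 0.31 for Cenpa. With each group's mean removed it was 0.98 for Nusap1, 0.96 for Ncaph and Plk1, and 0.95 for Kif4, Kif22 and Kif11. It was then 0.33 for Ncapd2, 0.32 for Anln, 0.20 for Cenpf, -0.42 for Cenpa and -0.45 for Bub3. Members share the arrays and their normalization, so these coefficients are a description of 6 points each. The median member spanned 1.07 log2 units over the arrays, and the median of all tested genes 0.78.

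Other genes of the same pathways, from lists chosen for function with earlier results of these data known, were lower by less than the members or by about as much. Of 55 tested G2/M genes that are no members 50 were lower, where 52.1% of all tested genes were, with a median log2 difference of -0.30. At an unadjusted p under 0.05 2 of them were lower, where 1.28% of all tested genes were. The kinesin gene Kif15 differed by -0.68 ± 0.28, the cyclin gene Ccnf by -0.55 ± 0.23 and Cdca2, which targets a phosphatase to mitotic chromatin, by -0.48 ± 0.22. The APC/C genes, 8 subunits and the coactivator gene Fzr1, were lower for 8 of 9 tested and the cohesin genes for 8 of 10, with medians of -0.13 and -0.17. The smallest p among APC/C genes belonged to Cdc23 (-0.25 ± 0.20), Cdc27 (-0.25 ± 0.25) and Anapc2 (-0.24 ± 0.25), and among cohesin genes to Rad21 (-0.45 ± 0.25), Smc1a (-0.31 ± 0.22) and Pds5b (-0.25 ± 0.28). Of the MuvB, DREAM and MYBL2 genes 7 of 9 tested were lower, with a median of -0.23. Mybl2, the activator that hands G2/M promoters on to FOXM1, was at 8.62, 8.36 and 6.80 in the knockout and 9.15, 8.93 and 8.83 in the controls (-1.04 ± 0.44; limma adjusted p = 0.998). Its groups did not overlap, and knockout replicate 3 lay far below the other knockouts. Lin54, a MuvB subunit gene, differed by -0.44 ± 0.25 and Tfdp1, which encodes the E2F partner DP1, by -0.40 ± 0.27. In these lists 0 genes passed the adjusted threshold.

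Genes of S phase showed a different order of arrays. Of 45 tested, 42 were lower, with a median log2 difference of -0.53, -0.12 without knockout replicate 3 and -0.80 without knockout replicate 2. Within the pairs, in the order of the knockout replicates, the S phase medians were -0.37, -0.03 and -1.18, and those of the members were -0.14, -0.53 and -0.48. Knockout replicate 2 stood at 0.29 for the median S phase gene and at -0.15 for the median member, each against the gene's mean over the arrays. For the median of the other G2/M genes it stood between them, at 0.02. The difference between these groups of genes was not tested. Among S phase genes the smallest p belonged to Uhrf1, which carries DNA methylation through replication, at -0.78 ± 0.28, the histone chaperone gene Chaf1a at -0.86 ± 0.32 and the polymerase gene Pold1 at -0.74 ± 0.28 (limma adjusted p = 0.998 for each).

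**Figure D4:**
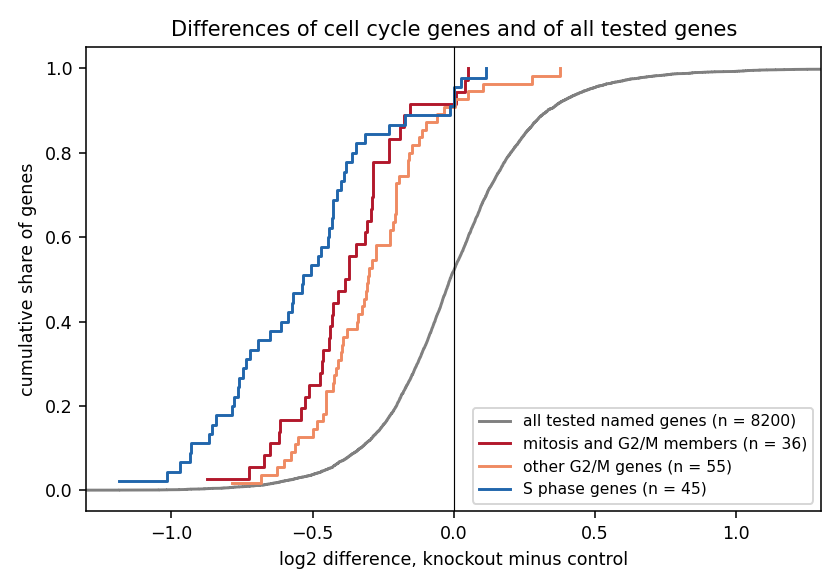
Cumulative share of genes (y axis) against the log2 difference between knockout and control (x axis) for the 36 tested members, 55 other G2/M genes, 45 S phase genes and all 8200 tested genes with a name. The 3 cell cycle curves lie left of that of all genes, with medians of -0.38, -0.30 and -0.53 against -0.01.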

How the data were processed

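The authors' deposited table holds probe signals as linear intensity, not normalized between arrays, and other columns with a detection p-value per probe and array, per the file headers. Per the submitters' processing notes BeadStudio 3.1.3 was used, with settings unstated in the sources used here. A deposited table of processed intensity, on the linear scale with 34.3% to 34.4% of values below 0, ranked the probes as each array's own signal did (Spearman 1) and served as an alternative.

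From the signals, neqc in limma 3.58.1 (R 4.3.3) corrected background, equalized quantiles and took log2 after adding 16, so differences of dim probes are understated. Each probe was fitted with lmFit and eBayes, 3 arrays per group and no covariate, with 4 residual and 4.51 prior degrees of freedom, two-sided, and adjusted by Benjamini-Hochberg over 14651 tested probes. A gene stands for its tested probe with the highest mean. Probe names came from the array's annotation: 34885 probes had 1 symbol, 18 several and 10378 none. Whether a probe is specific to its gene was not checked. Summed marker signals are on the linear scale after 16 is taken off again. The number of arrays limits the precision, with a median standard error of 0.26.

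Values on every array were printed, where tested, for Mki67, Top2a, Ccna2, Ccnb1, Cdk1, Foxm1, Aurkb and Plk1, and in each of 9 roles for the 2 members with the smallest p and the one with the most positive difference. Ncaph was added after its values were seen, because its groups do not overlap. Other probes were to be named where the sign differed or the gap was over 0.5, and from each pathway list the 3 genes with the smallest p. The members and lists were chosen with earlier results of these data known. Deviations from the group means correlated by 0.128, 0.164 and 0.518 within the pairs of neighbouring file numbers, and by -0.464 to 0.317 in the other combinations of knockout and control. The labels name 3 knockout and 3 littermate control mice for the 6 arrays. Alternatives changed background, offset, scaling, filter, probe choice, prior, weights, blocks and the arrays used. The plots were drawn with matplotlib 3.10.9.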

Additional observations from a re-analysis of the deposited data

How the results depend on the processing

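The members past the adjusted threshold numbered 0 under all 20 alternatives. Of 36 tested members 29 to 36 were lower without 1 array, and the members' median log2 difference ran from -0.54 to -0.19, that of other G2/M genes from -0.41 to -0.11 and that of S phase genes from -0.80 to -0.12. The count at an unadjusted p under 0.05 was 5 (1.28% of all genes), 9 with array weights (2.1%), 8 with the pairs of file numbers as a block (2.13%), 8 with the range of those numbers as a block (2.06%), 2 in the lower range alone, without knockout replicate 3 and control replicate 6 (0.598%), and 1 to 11 without 1 array (0.646% to 2.67%). Groups that did not overlap numbered 7 (3.39% of all genes), 21 in the lower range alone (12.3%) and 7 to 21 without 1 array (6.62% to 11.2%). Fewer arrays overlap less often by construction. Trim28 (-1.72) passed with a trended and robust prior (adjusted p = 0.0308), and ran from -1.88 to -1.49 without 1 array. Of 716 values of the 36 tested members under the alternatives 701 kept their direction and stayed short of the threshold, and 15 turned, in 7 members. These were Smc4 under median scaling (-0.00782), Cdc25b (-0.13) and Ect2 (0.0324) in the lower range alone, and, without 1 array, Smc4 (-0.29 to 0.16), Cdc25b (-0.11 to 0.24), Bub3 (-0.0549 to 0.16), Ect2 (-0.66 to 0.0105), Ndc80 (-0.35 to 0.0547), Mad2l1 (-0.42 to 0.16) and Nuf2 (-1.01 to 0.39). The cause was not tested. Melk, Cenpf, Ube2c and Nuf2 gave no value when detection on all 6 arrays was required. The labels' replicate numbers are not shared between groups, so the pair block rests on file numbers of unstated meaning. Members near the background, such as Melk, Ube2c, Cenpf and Nuf2, are limited by signal.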
